A study of Mus musculus with 9 samples.

Results

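The heat shock proteins and DnaJ chaperones form the protein-folding machinery of the cell, and their transcripts were followed here in the mouse brain. The members were all protein-coding genes of the count table whose symbol begins with Hspa, Hspb, Hspd, Hspe, Hsph or Hsp90, or with Dnaja, Dnajb or Dnajc, followed by a number. The rule found 73 of the 56748 genes in the table, and 65 of them passed the filter on low counts, beside 17575 genes tested in all. By family the tested members were 13 HSP70 genes, 1 HSP110 gene, 3 HSP90 genes, 3 mitochondrial chaperonin genes, 5 small heat shock protein genes, 4 DnaJA, 11 DnaJB and 25 DnaJC genes. Bulk RNA sequencing covered 3 genotypes with 3 libraries each, every library titled as a separate mouse: 5xFAD/Cd5l tg/wt, 5xFAD and wild-type. 5xFAD mice carry mutant human transgenes under the neuronal Thy1 promoter and deposit amyloid, and 5xFAD/Cd5l tg/wt mice carry in addition mouse Cd5l driven by the human PDGF-B promoter. Wild-type mice carry neither transgene, and no group carried the Cd5l transgene without the amyloid transgenes. All mice were 7 months old, total RNA came from brain without the cerebellum, and the labels do not give the sex.

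HSP70 proteins bind exposed hydrophobic stretches of unfolded proteins in a cycle driven by ATP. DnaJ proteins (also called HSP40s) deliver clients to HSP70 and stimulate its ATPase, HSP110 proteins exchange the nucleotide, and HSP90 completes the folding of many kinases and receptors. Separate sets work in the endoplasmic reticulum and in mitochondria, small heat shock proteins hold aggregating proteins without ATP, and the factor HSF1 switches on the heat-inducible genes by binding heat shock elements. In neurons, HSC70 (Hspa8) with the DnaJ proteins auxilin and cysteine string protein also strips clathrin from vesicles and keeps synaptic proteins folded.

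The libraries held 14575416 to 17865150 counts, and the members took 0.940% to 0.986% of the counts in 5xFAD/Cd5l tg/wt, 1.04% to 1.11% in 5xFAD and 0.975% to 1.04% in wild-type libraries. Cd5l, the added transgene, was at 170.0, 190.3 and 200.4 CPM (counts in every 1000000 after scaling) in 5xFAD/Cd5l tg/wt, at 0 in the 5xFAD libraries and at no more than 0.0608 CPM in wild-type libraries. All 12 microglial marker genes rose in both amyloid genotypes against wild-type by edgeR's quasi-likelihood test, and their summed level was 1045 to 1243 CPM in 5xFAD/Cd5l tg/wt, 871 to 1135 CPM in 5xFAD and 408 to 444 CPM in wild-type libraries. The summed levels of 10 endothelial and mural markers were 341 to 372 CPM in 5xFAD/Cd5l tg/wt, 199 to 242 CPM in 5xFAD and 313 to 339 CPM in wild-type libraries. Markers of the cerebellum and hindbrain and of the hypothalamus set 3 libraries apart, called below those with deviating regional markers. Cerebellar and hindbrain markers summed to 46.8 to 146 CPM in 5xFAD/Cd5l tg/wt libraries, 133 to 176 CPM in 5xFAD libraries and 214, 132 and 957 CPM in the wild-type libraries, where library 3 was far above the others. Hypothalamic markers summed to 3.57 and 6.32 CPM in libraries 2 and 3 of 5xFAD/Cd5l tg/wt, against 51.6 to 89.2 CPM in the other 7. Library 1 of 5xFAD/Cd5l tg/wt, not among these 3, was the lowest in striatal and choroid plexus markers. Striatal markers summed to 594, 1148 and 905 CPM in 5xFAD/Cd5l tg/wt, 904 to 1034 CPM in 5xFAD and 711 to 1185 CPM in wild-type libraries. Choroid plexus markers summed to 331, 517 and 819 CPM, 541 to 625 CPM and 436 to 773 CPM in the same order. In tissue RNA, fewer cells of a type and less RNA per cell cannot be told apart. The 3 comparisons share libraries: a high or low 5xFAD group moves 2 of them in opposite directions.

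The chaperone transcripts as a group were lowest in 5xFAD/Cd5l tg/wt and highest in 5xFAD, with small differences of which few passed the test. In 5xFAD/Cd5l tg/wt against 5xFAD, 50 of the 65 tested members were lower and 15 higher, with a median log2 fold change of -0.138, against 0.00655 over all tested genes. Hspa8 and Hspe1 fell, no member rose and 63 did not pass an adjusted p of 0.05 over all 17575 genes, where 6.23% of all tested genes were called, 5.34% higher and 0.888% lower. The 3 libraries of 5xFAD/Cd5l tg/wt all lay below the 3 of 5xFAD in 23 members, and above them in 1, where 28.7% of all tested genes separated, 12.1% below and 16.6% above. DESeq2 called 7 members lower in this comparison, and 1437 of all 17575 genes in either direction. The limma-voom calls were 2 members, both lower, and 1080 genes. Most of the genes called by either method were higher. In edgeR 18 members had an unadjusted p under 0.05, against 22.3% of all genes.

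In 5xFAD against wild-type, 51 of the 65 members were higher and 14 lower, with a median log2 fold change of 0.0650, against -0.0107 over all tested genes, of which 47.8% were above 0. No member passed the test in edgeR, where 3.50% of all tested genes did, 1.06% higher and 2.44% lower. 7 members had an unadjusted p under 0.05 (16.3% of all genes). DESeq2 called 1 member, Hsph1, and 846 of all 17575 genes, and limma-voom called 0 members and 536 genes. All 3 5xFAD libraries lay above the wild-type libraries in 9 members and below them in 1, at 10.4% and 13.9% of all tested genes. In 5xFAD/Cd5l tg/wt against wild-type, 44 members were lower and 21 higher, with a median of -0.0523, against 0.000801 over all genes. No member passed there in edgeR, DESeq2 or limma-voom. Of all genes edgeR called 1.58%, 1.38% higher and 0.199% lower, while DESeq2 called 467 genes and limma-voom 268. An unadjusted p under 0.05 in edgeR was found for 4 members, against 12.4% of all genes. In that comparison the libraries separated downwards in 7 members and upwards in 1, at 6.53% and 7.93% of all genes.

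Most of these differences were small. With 5xFAD/Cd5l tg/wt set against 5xFAD, 39 of 65 members lay within 0.2 of 0 on the log2 scale, 22 were lower by more and 4 higher by more. The corresponding counts were 53, 3 and 9 in 5xFAD against wild-type and 53, 9 and 3 in 5xFAD/Cd5l tg/wt against wild-type. The mean levels of 35 members ran in the order 5xFAD, wild-type, 5xFAD/Cd5l tg/wt, highest to lowest, an order found for 20.9% of all tested genes. All 3 5xFAD libraries lay above the other 6 in Hspa8, Hsph1, Hspe1, Hsp90ab1, Hspa13 and Dnajb6, that is in 6 of 65 members, where 3.37% of all genes did so. All 3 5xFAD/Cd5l tg/wt libraries lay below the other 6 in Dnajb1, Dnaja3, Hspa9, Hspd1 and Hspb8, 5 of 65 members, where 3.25% of all genes did so.

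**Figure D1:**
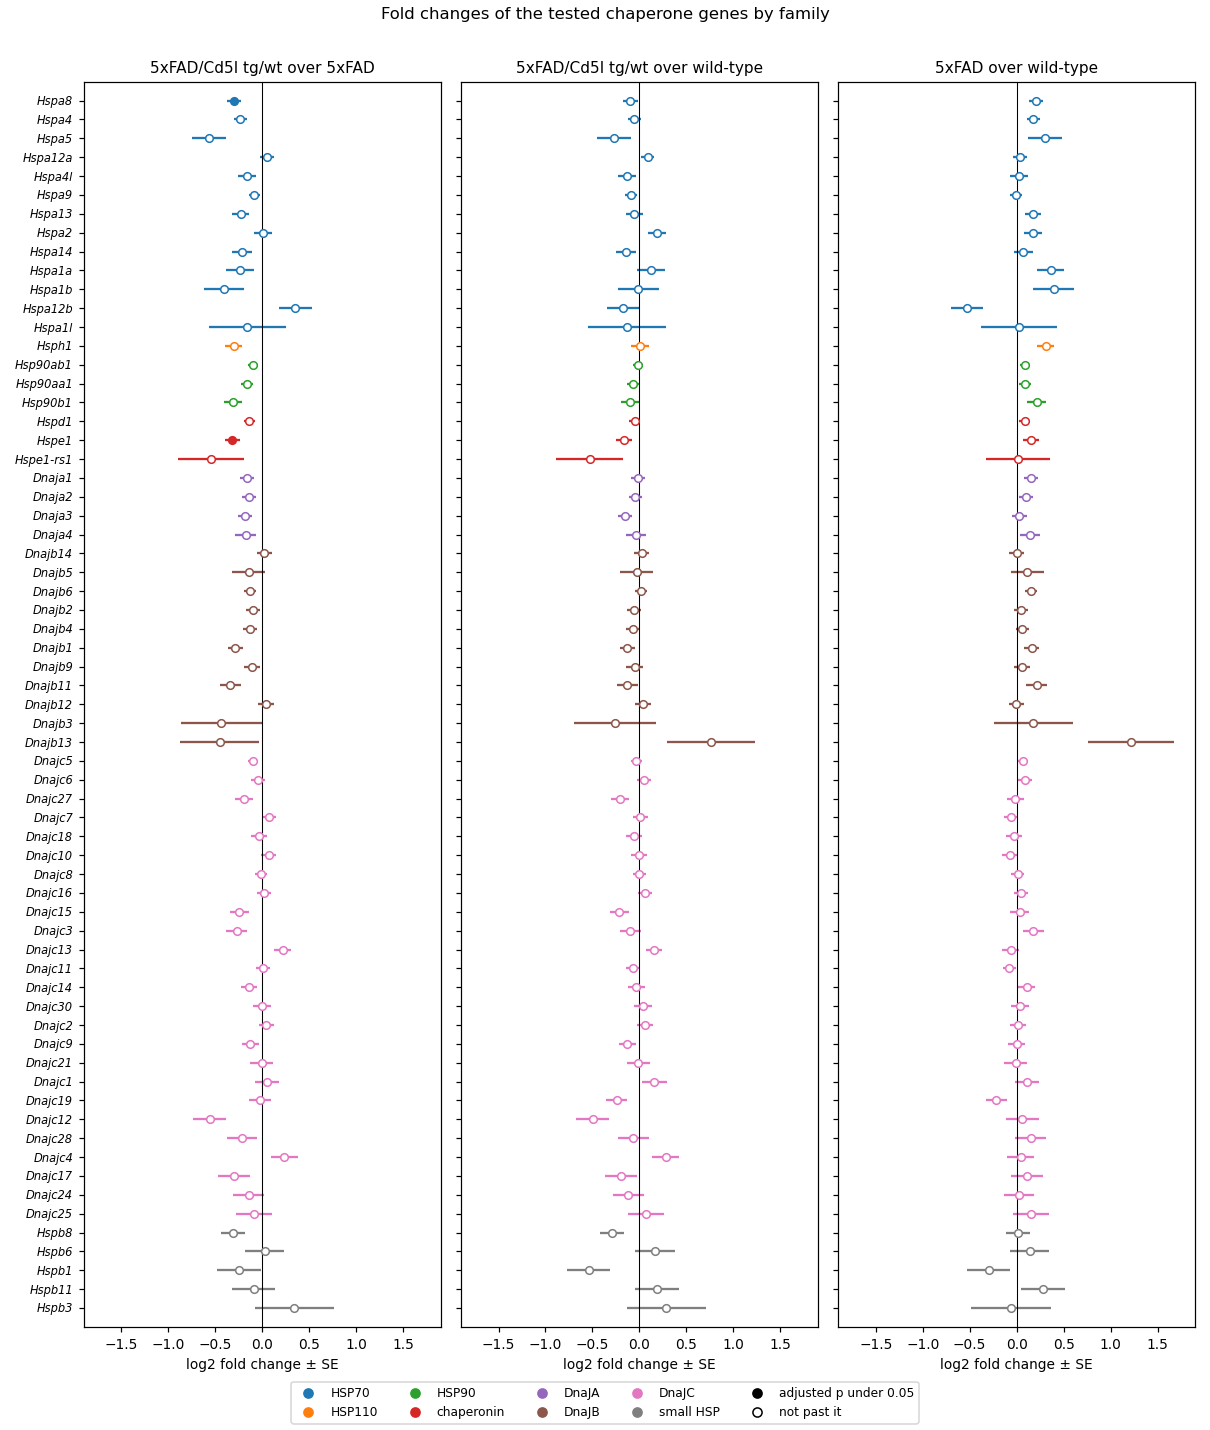
Log2 fold changes (horizontal axis) of the 65 tested chaperone genes, grouped and coloured by family, in 5xFAD/Cd5l tg/wt over 5xFAD, 5xFAD/Cd5l tg/wt over wild-type and 5xFAD over wild-type. Points are fitted values, bars are ± SE (n = 3 libraries per genotype), and filled points, Hspa8 and Hspe1 in 5xFAD/Cd5l tg/wt over 5xFAD, passed an adjusted p of 0.05; 50 of the 65 points lie left of 0 in that comparison and 51 lie right of 0 in 5xFAD over wild-type.

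Set out by library, the pattern followed genotype with spread inside each. For each member, the log2 CPM of a library was taken relative to that member's mean over the 9 libraries, and the median over the 65 members was -0.0623, -0.0690 and -0.0335 in the 5xFAD/Cd5l tg/wt libraries. It was 0.0645, 0.103 and 0.0257 in the 5xFAD libraries and -0.0613, -0.0104 and 0.0384 in the wild-type libraries, with a pooled SD within genotypes of 0.0381. The 5xFAD/Cd5l tg/wt and 5xFAD libraries did not overlap, whereas the wild-type libraries spanned a range that reached into both. Wild-type library 3, which stood apart in its hindbrain markers, was the highest of its group, and 5xFAD library 3 was the lowest of the 5xFAD group. The highest of the 9 libraries was a 5xFAD library for 34 members and a 5xFAD/Cd5l tg/wt library for 13, and the lowest was a 5xFAD/Cd5l tg/wt library for 40 members and a 5xFAD library for 9.

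**Figure D2:**
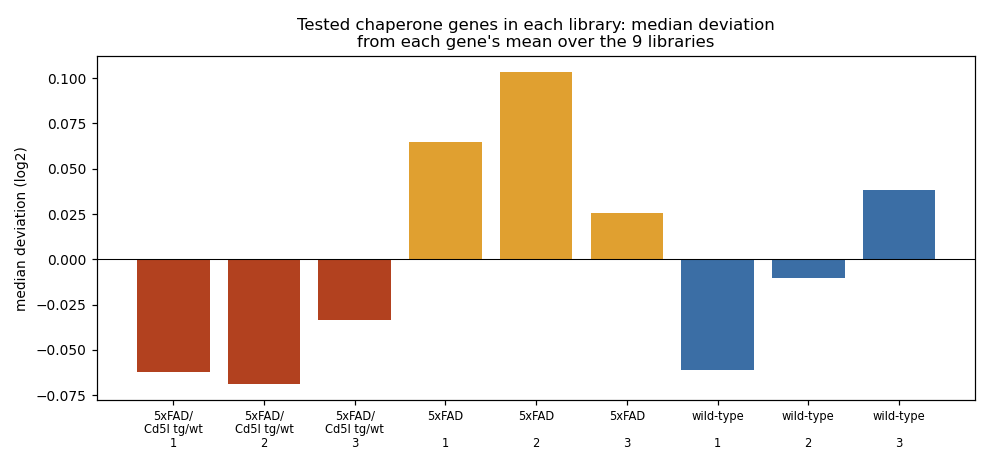
Median over the 65 tested chaperone genes of the log2 deviation of each library (vertical axis) from the gene's mean over the 9 libraries, 1 bar per library. The 3 5xFAD/Cd5l tg/wt bars lie between -0.0690 and -0.0335, the 3 5xFAD bars between 0.0257 and 0.103, and the wild-type bars between -0.0613 and 0.0384.

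Measures of RNA composition also differed between the groups. Long non-coding RNA genes took 1.39% to 1.65% of the counts in 5xFAD/Cd5l tg/wt, 1.15% to 1.20% in 5xFAD and 1.35% to 1.53% in wild-type libraries, so that the 5xFAD libraries were lowest where the chaperones were highest. Ribosomal RNA genes averaged 0.0961% of the counts in 5xFAD/Cd5l tg/wt, 0.237% in 5xFAD and 0.132% in wild-type libraries. The ranges were 0.0661% to 0.121%, 0.184% to 0.265% and 0.0584% to 0.255%, so the wild-type range overlapped both others. Wild-type library 3 was the high one of its group. The nuclear transcript Malat1 averaged 461 ± 147 CPM in 5xFAD/Cd5l tg/wt, 110.3 ± 10.2 CPM in 5xFAD and 371 ± 44.6 CPM in wild-type libraries (SD, n = 3 each). The 7 oligodendrocyte markers summed to 4706 to 7071 CPM in 5xFAD/Cd5l tg/wt, 6663 to 7526 CPM in 5xFAD and 7374 to 8287 CPM in wild-type libraries. All 7 were lower in 5xFAD/Cd5l tg/wt than in 5xFAD (median log2 fold change -0.178) and than in wild-type (median -0.311). Of these, 2 and 5 had an unadjusted p under 0.05 (22.3% and 12.4% of all genes) and 0 an adjusted one. The 8 neuronal markers summed to 7983 to 8616 CPM in 5xFAD/Cd5l tg/wt, 7680 to 8127 CPM in 5xFAD and 6992 to 7330 CPM in wild-type libraries. They include Thy1, whose promoter drives the amyloid transgenes. In 5xFAD against wild-type 5 of the 8 were lower (median log2 fold change -0.0558), 1 rose, and the highest value was 1.27. In 5xFAD/Cd5l tg/wt against wild-type 5 were lower too (median -0.0323), 1 rose, and the highest value was 1.53. Between 5xFAD/Cd5l tg/wt and 5xFAD, 5 of the 8 were higher and 3 lower (median 0.0593), with values from -0.493 to 0.261. There 0 passed and 5 had an unadjusted p under 0.05 (22.3% of all genes). The libraries separated upwards in 3 of these markers and downwards in 2 (16.6% and 12.1% of all genes). The part of these measures in the chaperone differences was not tested, and neither was that of the microglial and endothelial markers. Leaving out the 3 libraries with deviating regional markers gave a member median of -0.152 in 5xFAD/Cd5l tg/wt against 5xFAD and 0.107 in 5xFAD against wild-type. In that fit library 1 alone stands for 5xFAD/Cd5l tg/wt and is assumed to vary like the other groups. This library was itself the lowest in striatal and choroid plexus markers (594 and 331 CPM).

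The cytosolic HSP70 machine held the member with the most counts. Hspa8 (chromosome 9, 40712280 to 40721383, GRCm39) encodes HSC70, the constitutive HSP70 of neurons that uncoats clathrin vesicles. It was at 1412, 1574 and 1643 CPM in the 5xFAD/Cd5l tg/wt libraries, 1952, 1999 and 1759 CPM in the 5xFAD libraries and 1539.8, 1668 and 1739 CPM in the wild-type libraries. The 5xFAD libraries lay above the other 6, and the 5xFAD/Cd5l tg/wt and wild-type ranges overlapped. Hspa8 fell in 5xFAD/Cd5l tg/wt against 5xFAD, with a log2 fold change of -0.30 ± 0.075 (SE, n = 3 each, edgeR adjusted p = 0.0337), a level 18.9% lower. In 5xFAD against wild-type the value was 0.21 ± 0.075 (adjusted p = 0.181), and in 5xFAD/Cd5l tg/wt against wild-type -0.096 ± 0.075 (adjusted p = 0.673). The fall of Hspa8 did not pass without 5xFAD library 1, without 5xFAD library 2 or without library 2 of 5xFAD/Cd5l tg/wt (adjusted p = 0.138, 0.161 and 0.0766). It passed under the other 15 of 18 alternatives, removal of the 3 libraries with deviating regional markers among them.

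The nucleotide exchange factors Hsph1 and Hspa4, which let HSP70 release its client, also had their highest means in 5xFAD, though neither passed in edgeR. Hsph1 (chromosome 5, 149537752 to 149559841), which encodes HSP105, was at 269, 325 and 334 CPM in the 5xFAD/Cd5l tg/wt libraries, 399, 404 and 341 CPM in the 5xFAD libraries and 292, 317 and 314 CPM in the wild-type libraries. Its log2 fold change was -0.30 ± 0.091 in 5xFAD/Cd5l tg/wt against 5xFAD (adjusted p = 0.0736) and 0.31 ± 0.091 in 5xFAD against wild-type (adjusted p = 0.0984), and the 5xFAD libraries lay above all others. Hsph1 passed in 5xFAD against wild-type under 5 of 18 alternatives, among them DESeq2 (adjusted p = 0.0362). Hspa4, an exchange factor that the HSP70 symbol rule places in that family, was at 255, 282 and 271 CPM in the 5xFAD/Cd5l tg/wt libraries, 327, 323 and 298 CPM in the 5xFAD libraries and 267, 273 and 300.2 CPM in the wild-type libraries. Its log2 fold change was -0.23 ± 0.070 in 5xFAD/Cd5l tg/wt against 5xFAD (adjusted p = 0.0711), and only its 5xFAD/Cd5l tg/wt and 5xFAD ranges were apart, since wild-type library 3 reached into the 5xFAD range.

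The stress-inducible HSP70 genes Hspa1a (chromosome 17, 35188166 to 35191132) and Hspa1b (chromosome 17, 35175412 to 35178214), which heat shock switches on in most cells, were low in every group. Hspa1a was at 11.4, 9.10 and 9.31 CPM in the 5xFAD/Cd5l tg/wt libraries, 10.5, 13.7 and 10.8 CPM in the 5xFAD libraries and 8.89, 9.18 and 9.27 CPM in the wild-type libraries. Hspa1b was at 9.45, 9.85 and 7.11 CPM in the 5xFAD/Cd5l tg/wt libraries, 12.9, 13.2 and 8.70 CPM in the 5xFAD libraries and 8.14, 11.4 and 6.91 CPM in the wild-type libraries. Neither passed: in 5xFAD against wild-type the log2 fold changes were 0.36 ± 0.15 and 0.40 ± 0.22 (adjusted p = 0.246 and 0.407), and in 5xFAD/Cd5l tg/wt against 5xFAD they were -0.24 ± 0.15 and -0.41 ± 0.22 (adjusted p = 0.371 and 0.293). These genes are near-identical copies on the same strand, 9952 bases apart, so the split of reads between them is uncertain. How reads that match several genes were counted is not given in the sources used here. Their summed level was 18.7 ± 2.22 CPM in 5xFAD/Cd5l tg/wt, 23.3 ± 3.76 CPM in 5xFAD and 17.9 ± 2.35 CPM in wild-type libraries (SD, n = 3 each), and the ranges of all 3 groups overlapped. The likeness of the pair reaches into the promoters, shown here because the genes are measured as separate members. The RefSeq windows from 250 bases before to 50 after the transcript start (GRCm38.p6, an older build than that of the counts) are chr17:34972107-34972406 for Hspa1a and chr17:34959189-34959488 for Hspa1b, both on the minus strand, with 4 differences in 300 bases (98.7% identity), given in capitals.
Hspa1a: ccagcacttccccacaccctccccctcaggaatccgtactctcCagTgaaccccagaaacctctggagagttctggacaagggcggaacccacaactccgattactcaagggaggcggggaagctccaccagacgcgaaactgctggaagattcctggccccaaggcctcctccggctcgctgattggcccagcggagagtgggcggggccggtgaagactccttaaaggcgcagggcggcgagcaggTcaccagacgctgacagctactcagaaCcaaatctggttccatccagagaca
Hspa1b: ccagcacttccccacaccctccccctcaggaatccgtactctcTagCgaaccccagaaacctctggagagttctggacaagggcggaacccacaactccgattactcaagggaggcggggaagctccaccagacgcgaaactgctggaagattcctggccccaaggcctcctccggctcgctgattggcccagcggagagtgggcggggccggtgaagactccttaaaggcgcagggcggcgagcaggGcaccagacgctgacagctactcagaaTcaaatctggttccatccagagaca

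The remaining HSP70 genes varied in direction. Over the family, 10 of 13 members were lower in 5xFAD/Cd5l tg/wt than in 5xFAD, with a median log2 fold change of -0.216. Of these 1 fell, Hspa8, where 0.888% of all genes were called lower. Against wild-type 11 of 13 were higher in 5xFAD, with a median of 0.176. There 0 passed and 4 had an unadjusted p under 0.05 (16.3% of all genes). The family's summed level was 2891 ± 143 CPM in 5xFAD/Cd5l tg/wt, 3453 ± 247 CPM in 5xFAD and 3075 ± 234 CPM in wild-type libraries (SD, n = 3 each). Hspa12b (chromosome 2, 130969200 to 130988241), an atypical HSP70 found mainly in endothelial cells, went the other way. It was at 9.06, 5.80 and 7.79 CPM in the 5xFAD/Cd5l tg/wt libraries, 6.22, 5.89 and 5.62 CPM in the 5xFAD libraries and 9.07, 8.76 and 7.74 CPM in the wild-type libraries. The 5xFAD libraries lay below the wild-type ones. Its log2 fold change was -0.53 ± 0.18 in 5xFAD against wild-type (adjusted p = 0.142) and 0.35 ± 0.18 in 5xFAD/Cd5l tg/wt against 5xFAD (adjusted p = 0.262). Of the 10 endothelial and mural markers, 4 fell in 5xFAD against wild-type and 7 were higher in 5xFAD/Cd5l tg/wt than in 5xFAD by the same test; their part in the Hspa12b values was not tested. Hspa2, best known from the testis, had the highest log2 fold change of its family in 5xFAD/Cd5l tg/wt against wild-type, 0.19 ± 0.095 (adjusted p = 0.467).

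The HSP90 genes, whose products act after HSP70 on signalling proteins, were all lower in 5xFAD/Cd5l tg/wt than in 5xFAD and none passed. Hsp90aa1 (chromosome 12, 110657039 to 110669162), the inducible cytosolic form, was at 1043, 1085 and 1078 CPM in the 5xFAD/Cd5l tg/wt libraries, 1191, 1218 and 1169.5 CPM in the 5xFAD libraries and 1056, 1079 and 1225 CPM in the wild-type libraries. Hsp90ab1 (chromosome 17, 45878701 to 45884197), the constitutive cytosolic form, was at 1522, 1617 and 1536 CPM in the 5xFAD/Cd5l tg/wt libraries, 1673, 1688 and 1651 CPM in the 5xFAD libraries and 1606, 1608 and 1500.4 CPM in the wild-type libraries. In both genes the 5xFAD/Cd5l tg/wt range lay below the 5xFAD range, with log2 fold changes of -0.16 ± 0.064 and -0.10 ± 0.055 (adjusted p = 0.167 and 0.305). Against wild-type the 2 values of 5xFAD were 0.091 ± 0.064 and 0.088 ± 0.055 (adjusted p = 0.545 and 0.480). The 3 HSP90 genes summed to 2921 ± 76.5 CPM in 5xFAD/Cd5l tg/wt, 3229 ± 83.8 CPM in 5xFAD and 3007 ± 55.4 CPM in wild-type libraries (SD, n = 3 each).

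**Figure D3:**
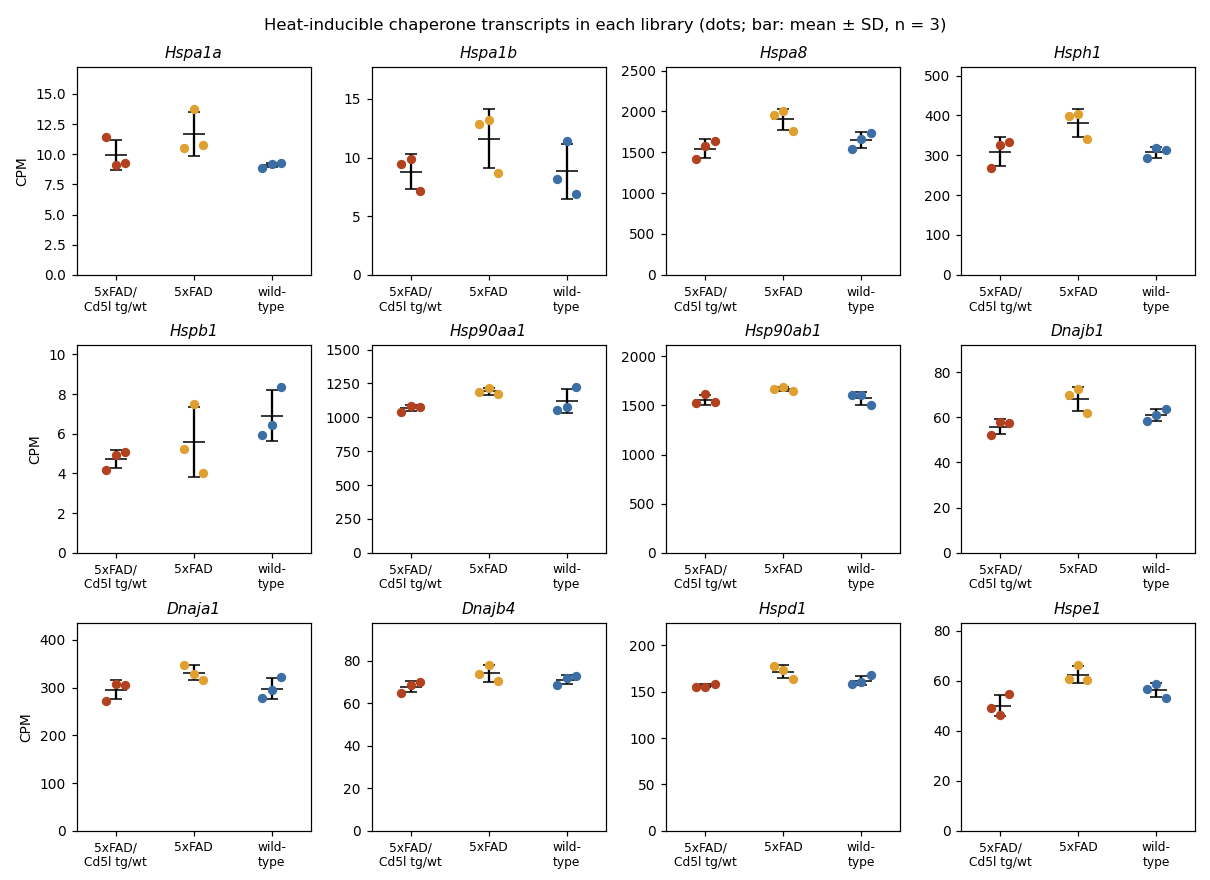
Levels (CPM, vertical axes from 0) of the 12 chaperone genes listed as heat-inducible in the 9 libraries: dots are libraries, bars are mean ± SD (n = 3). In 5xFAD/Cd5l tg/wt against 5xFAD the mean is lower in all 12, the ranges do not overlap in 9 (12.1% of all tested genes separated downwards), and Hspa8 and Hspe1 passed the test (0.888% of all were called lower).

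The 12 members listed as heat-inducible include Hspa8 and Hsp90ab1, the constitutive forms named above. All 12 were lower in 5xFAD/Cd5l tg/wt than in 5xFAD, with a median log2 fold change of -0.241, against 0.00655 over all tested genes. Of these 2 fell, Hspa8 and Hspe1, where 0.888% of all genes were called lower. An unadjusted p under 0.05 was found for 7, against 22.3% of all genes. Of the 12, 11 were higher in 5xFAD than in wild-type, with a median of 0.152 and 0 that passed, where 3 had an unadjusted p under 0.05 (16.3% of all genes). In 5xFAD/Cd5l tg/wt against wild-type 10 were lower, with a median of -0.0598 and 0 that passed, where 1 had an unadjusted p under 0.05 (12.4% of all genes). Dnajb1 (chromosome 8, 84334822 to 84339282), the main inducible DnaJ partner of HSP70, was at 52.0, 57.9 and 57.6 CPM in the 5xFAD/Cd5l tg/wt libraries, 69.7, 72.5 and 62.0 CPM in the 5xFAD libraries and 58.4, 60.9 and 63.8 CPM in the wild-type libraries. Its log2 fold change in 5xFAD/Cd5l tg/wt against 5xFAD was -0.29 ± 0.082 (adjusted p = 0.0592), and its 5xFAD/Cd5l tg/wt libraries lay below the other 6. Dnaja1, a second cytosolic partner, was at 273, 307 and 306 CPM in the 5xFAD/Cd5l tg/wt libraries, 348, 329 and 317 CPM in the 5xFAD libraries and 278, 294 and 322 CPM in the wild-type libraries. Dnajb4 was at 65.0, 68.5 and 69.9 CPM in the 5xFAD/Cd5l tg/wt libraries, 74.0, 78.2 and 70.3 CPM in the 5xFAD libraries and 68.9, 71.7 and 72.8 CPM in the wild-type libraries. In Dnaja1 and Dnajb4, too, the 5xFAD/Cd5l tg/wt range lay below the 5xFAD range, while the wild-type range overlapped both, and the log2 fold changes of -0.16 ± 0.075 and -0.13 ± 0.071 did not pass (adjusted p = 0.220 and 0.305).

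The mitochondrial folding cage is built from Hspd1 (HSP60) and its lid Hspe1 (HSP10), which face away from each other on chromosome 1. In the annotation of the files (GRCm39), Hspd1 (chromosome 1, 55116994 to 55127402, minus strand) and Hspe1 (chromosome 1, 55127291 to 55130466, plus strand) overlap by 112 bases. Without the strand setting of the counting, which is not given in the sources used here, reads in the overlap cannot be assigned with certainty. Hspe1 was at 49.3, 46.5 and 54.6 CPM in the 5xFAD/Cd5l tg/wt libraries, 60.9, 66.4 and 60.3 CPM in the 5xFAD libraries and 56.9, 58.7 and 53.2 CPM in the wild-type libraries. Hspe1 fell in 5xFAD/Cd5l tg/wt against 5xFAD, with a log2 fold change of -0.32 ± 0.082 (adjusted p = 0.0400), a level 19.8% lower, and the 5xFAD libraries lay above the other 6. Hspd1 was at 156, 155 and 158 CPM in the 5xFAD/Cd5l tg/wt libraries, 178, 174 and 164 CPM in the 5xFAD libraries and 159, 160.2 and 168 CPM in the wild-type libraries. The 5xFAD/Cd5l tg/wt libraries of Hspd1 lay below the other 6, though the highest of them was less than 1 CPM from the lowest wild-type library, and its log2 fold change against 5xFAD was -0.14 ± 0.062 (adjusted p = 0.217). The fall of Hspe1 passed under 10 of 18 alternatives. It did not pass without any single 5xFAD library (adjusted p = 0.116, 0.191 and 0.0658), without library 2 of 5xFAD/Cd5l tg/wt (0.148), without wild-type library 1 (0.0549), in the fit of the 6 libraries compared (0.0503) or when the 3 libraries with deviating regional markers were left out (0.0683).

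The sequence around the start of Hspe1 is shown because it reaches into the promoter of Hspd1 and holds the letters of a heat shock element. The motif searched was GAA, 2 bases of any kind, TTC, 2 bases of any kind and GAA, on both strands, in the same 300-base RefSeq windows (GRCm38.p6). It was found in 4 of the 58 members with a window, in 3 of the 9 heat-inducible members with one and in 0.662% of the 27025 genes with a window. The members were Hspe1, Hspd1, Hsph1 and Dnajb6. In Hspe1 (chr1:55087898-55088197, plus strand) overlapping matches on both strands begin 89 and 84 bases before the start, and the 18 bases they cover, in capitals, are the same bases that a window of Hspd1 holds on the other strand, from 144 bases before its start. In Hsph1 (chr5:149636266-149636565, minus strand) the match, in capitals, begins at base 16 of the transcript. A match says only that the letters are there.
Hspe1: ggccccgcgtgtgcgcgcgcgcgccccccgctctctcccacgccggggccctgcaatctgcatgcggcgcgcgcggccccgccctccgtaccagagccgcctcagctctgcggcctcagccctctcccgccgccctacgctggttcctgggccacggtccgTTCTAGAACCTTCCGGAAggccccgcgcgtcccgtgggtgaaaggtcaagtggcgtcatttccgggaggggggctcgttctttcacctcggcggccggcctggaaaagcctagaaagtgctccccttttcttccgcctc
Hsph1: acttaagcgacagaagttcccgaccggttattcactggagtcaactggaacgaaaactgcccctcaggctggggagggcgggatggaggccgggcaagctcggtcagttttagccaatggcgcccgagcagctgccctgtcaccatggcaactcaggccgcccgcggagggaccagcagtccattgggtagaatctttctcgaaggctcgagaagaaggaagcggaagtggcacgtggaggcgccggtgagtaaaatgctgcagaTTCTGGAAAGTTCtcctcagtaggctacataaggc

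Taken with Hspd1 and Hspe1, the mitochondrial members were mostly lowest in 5xFAD/Cd5l tg/wt, by small amounts. Of 9 tested, 8 were lower in 5xFAD/Cd5l tg/wt than in 5xFAD, with a median log2 fold change of -0.137, 1 that fell, Hspe1, and 4 with separate ranges (12.1% of all genes separated downwards). Against wild-type 8 of 9 were lower as well, with a median of -0.0906 and 4 with separate ranges (6.53% of all genes). There 0 passed and 0 had an unadjusted p under 0.05 in edgeR (12.4% of all genes). Dnaja3, the DnaJ partner of mitochondrial HSP70, was at 60.0, 55.4 and 61.7 CPM in the 5xFAD/Cd5l tg/wt libraries, 70.4, 68.1 and 62.6 CPM in the 5xFAD libraries and 62.4, 69.2 and 65.5 CPM in the wild-type libraries. Its log2 fold change was -0.18 ± 0.078 in 5xFAD/Cd5l tg/wt against 5xFAD (adjusted p = 0.192) and -0.15 ± 0.078 in 5xFAD/Cd5l tg/wt against wild-type (adjusted p = 0.461). Dnajc15, of the inner membrane, was at 80.1, 60.0 and 62.6 CPM in the 5xFAD/Cd5l tg/wt libraries, 81.0, 81.1 and 78.3 CPM in the 5xFAD libraries and 78.5, 74.1 and 82.7 CPM in the wild-type libraries. The values of 5xFAD/Cd5l tg/wt libraries 2 and 3 were low and that of library 1 was not. Libraries 2 and 3 were also low in hypothalamic markers (3.57 and 6.32 CPM), whose part in Dnajc15 was not tested. The log2 fold change of Dnajc15 against 5xFAD was -0.25 ± 0.10 (adjusted p = 0.171), and -0.39 without library 1. When the 3 libraries with deviating regional markers were left out it was -0.018. Dnajc19, a part of the import motor, had one of the 3 lowest log2 fold changes in 5xFAD against wild-type among members of at least 5 CPM, -0.22 ± 0.11 (adjusted p = 0.385).

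Among the chaperones of the endoplasmic reticulum, Hspa5 had the largest differences and varied widely between libraries. Hspa5 (chromosome 2, 34661982 to 34667559) encodes BiP, the HSP70 of this compartment and the sensor of unfolded proteins. It was at 226, 203 and 242 CPM in the 5xFAD/Cd5l tg/wt libraries, 356, 399.8 and 237 CPM in the 5xFAD libraries and 204, 283 and 322 CPM in the wild-type libraries. Libraries 1 and 2 of 5xFAD were high, and 5xFAD library 3 lay inside the range of the 5xFAD/Cd5l tg/wt libraries, as did wild-type library 1. The log2 fold change of Hspa5 in 5xFAD/Cd5l tg/wt against 5xFAD was -0.57 ± 0.18 (adjusted p = 0.0879), the lowest of all 65 members in that comparison, and it was 0.30 ± 0.18 in 5xFAD against wild-type (adjusted p = 0.463). Without 5xFAD library 3 it passed in 5xFAD/Cd5l tg/wt against 5xFAD, at -0.76 (adjusted p = 0.0199). Hspa5 passed there under 2 of 18 alternatives, the other being the fit without a filter. With 1 library left out its log2 fold change ran from -0.76 to -0.41, and its adjusted p reached 0.334 over the alternatives.

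Hsp90b1, the HSP90 of the endoplasmic reticulum (GRP94), had the same split inside the 5xFAD group. It was at 272, 284 and 327 CPM in the 5xFAD/Cd5l tg/wt libraries, 387, 393 and 316 CPM in the 5xFAD libraries and 285, 328 and 332 CPM in the wild-type libraries, and its log2 fold change in 5xFAD/Cd5l tg/wt against 5xFAD was -0.31 ± 0.099 (adjusted p = 0.0836). Dnajb11, a DnaJ partner of BiP, was at 43.1, 44.6 and 48.4 CPM in the 5xFAD/Cd5l tg/wt libraries, 64.1, 60.9 and 47.4 CPM in the 5xFAD libraries and 44.6, 54.1 and 50.2 CPM in the wild-type libraries, with a log2 fold change of -0.34 ± 0.11 (adjusted p = 0.0969). In both, as in Hspa5, 5xFAD library 3 was well below 5xFAD libraries 1 and 2. Dnajc3 encodes P58IPK, an inhibitor of the stress kinase PERK, and was at 69.6, 62.6 and 73.5 CPM in the 5xFAD/Cd5l tg/wt libraries, 88.7, 87.1 and 72.7 CPM in the 5xFAD libraries and 62.9, 72.5 and 84.6 CPM in the wild-type libraries; its log2 fold change was -0.27 ± 0.11 (adjusted p = 0.180). Hspa13, a small HSP70 of microsomes, was at 55.7, 54.3 and 49.4 CPM in the 5xFAD/Cd5l tg/wt libraries, 61.5, 63.9 and 61.5 CPM in the 5xFAD libraries and 49.2, 55.3 and 61.0 CPM in the wild-type libraries, with the 5xFAD libraries above the other 6 and a log2 fold change of -0.23 ± 0.087 (adjusted p = 0.142). Over the 11 members of this compartment, 7 were lower in 5xFAD/Cd5l tg/wt than in 5xFAD, with a median log2 fold change of -0.111. There 0 passed in edgeR and 5 had an unadjusted p under 0.05 (22.3% of all genes). In 5xFAD against wild-type 8 were higher, with a median of 0.157, where 0 passed and 0 had an unadjusted p under 0.05 (16.3% of all genes).

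Promoters of this compartment are shown for Hspa5 and Hsp90b1, its members with the highest level per length. The endoplasmic reticulum stress element, to which the unfolded protein response recruits its factors, was searched as CCAAT, 9 bases of any kind and CCACG, on both strands of the same windows. It was found in Hspa5, Hsp90b1 and Dnajc3, that is in 3 of 10 members of the compartment with a window, against 0.137% of all genes with a window. In Hspa5 (GRCm38.p6 chr2:34771840-34772139, plus strand) the match begins 65 bases before the start. In Hsp90b1 (chr10:86705395-86705694, minus strand) one match begins 212 bases before the start and another, on the opposite strand, 107 bases before it. Capitals mark the matches.
Hspa5: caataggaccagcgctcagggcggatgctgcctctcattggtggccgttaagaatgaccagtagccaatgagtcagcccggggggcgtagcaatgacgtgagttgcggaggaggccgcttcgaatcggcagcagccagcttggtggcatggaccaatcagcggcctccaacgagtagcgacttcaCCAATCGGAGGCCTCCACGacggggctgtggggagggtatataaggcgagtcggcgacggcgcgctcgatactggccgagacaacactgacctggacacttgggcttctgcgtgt
Hsp90b1: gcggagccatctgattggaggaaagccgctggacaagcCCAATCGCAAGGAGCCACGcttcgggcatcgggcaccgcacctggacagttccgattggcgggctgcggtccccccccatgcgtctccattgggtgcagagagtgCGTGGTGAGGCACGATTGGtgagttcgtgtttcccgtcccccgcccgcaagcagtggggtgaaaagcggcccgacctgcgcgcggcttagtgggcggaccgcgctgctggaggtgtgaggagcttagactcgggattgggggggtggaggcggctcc

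Of the DnaJ families, DnaJA and DnaJB lay to the same side as HSP70 and DnaJC lay near 0. All 4 DnaJA genes were lower in 5xFAD/Cd5l tg/wt than in 5xFAD, with a median log2 fold change of -0.170. So were 9 of 11 DnaJB genes, with a median of -0.135. None of these passed in edgeR, and 2 in each family had an unadjusted p under 0.05, against 22.3% of all genes. Of 25 DnaJC genes 17 were lower, with a median of -0.0309, where 0 passed and 4 had an unadjusted p under 0.05 (22.3% of all genes). Dnaja2, an abundant partner of HSC70, was at 182, 199.9 and 205 CPM in the 5xFAD/Cd5l tg/wt libraries, 229, 211 and 209 CPM in the 5xFAD libraries and 188, 207 and 210.0 CPM in the wild-type libraries. The 5xFAD/Cd5l tg/wt range lay below the 5xFAD range and overlapped that of wild-type. Dnajb6, which in cell models suppresses the aggregation of polyglutamine proteins, was at 125, 129 and 130.2 CPM in the 5xFAD/Cd5l tg/wt libraries, 142, 137 and 143 CPM in the 5xFAD libraries and 131, 119.7 and 128 CPM in the wild-type libraries. Its 5xFAD libraries lay above the other 6, with log2 fold changes of 0.16 ± 0.064 in 5xFAD against wild-type (adjusted p = 0.249) and -0.14 ± 0.064 in 5xFAD/Cd5l tg/wt against 5xFAD (adjusted p = 0.236).

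Dnajb5 was chosen after its values were seen, because 1 library decided its result. It was at 82.4, 147 and 152 CPM in the 5xFAD/Cd5l tg/wt libraries, 144, 149 and 128 CPM in the 5xFAD libraries and 122, 119 and 149 CPM in the wild-type libraries. Library 1 of 5xFAD/Cd5l tg/wt was far below the other 8. This library also had the lowest sum of striatal markers (594 CPM), whose part in Dnajb5 was not tested. The log2 fold change in 5xFAD/Cd5l tg/wt against 5xFAD was -0.15 ± 0.18 with all libraries (adjusted p = 0.673). When the 3 libraries with deviating regional markers were left out, so that library 1 alone stood for 5xFAD/Cd5l tg/wt, it was -0.79 (adjusted p = 0.00106), and without library 1 it was 0.085. Dnajb13, a protein of motile cilia and sperm tails, was near the detection limit at 0.866, 0.539 and 0.621 CPM in the 5xFAD/Cd5l tg/wt libraries, 0.927, 0.730 and 1.14 CPM in the 5xFAD libraries and 0.581, 0.182 and 0.415 CPM in the wild-type libraries. Its 5xFAD libraries lay above the wild-type ones, with a log2 fold change of 1.22 ± 0.45 (adjusted p = 0.196). The 8 markers of ciliated ependyma summed to 28.0 to 33.5 CPM in 5xFAD and 21.7 to 26.4 CPM in wild-type libraries; the 5xFAD/Cd5l tg/wt libraries spanned 19.2 to 30.4 CPM, no marker was at 0 in any library, and their part in the Dnajb13 value was not tested.

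DnaJC proteins are a mixed family that share the J domain and little else, and the synaptic ones had small differences. Dnajc5, the cysteine string protein of synaptic vesicles, was at 432, 442 and 416 CPM in the 5xFAD/Cd5l tg/wt libraries, 463, 467 and 451 CPM in the 5xFAD libraries and 424, 439.9 and 456 CPM in the wild-type libraries. Its log2 fold changes were -0.099 ± 0.057 in 5xFAD/Cd5l tg/wt against 5xFAD and 0.065 ± 0.057 in 5xFAD against wild-type (adjusted p = 0.336 and 0.650). Dnajc6, the neuronal auxilin that brings HSC70 to clathrin coats, was at 369.7, 370.1 and 317 CPM in the 5xFAD/Cd5l tg/wt libraries, 357, 364 and 370.4 CPM in the 5xFAD libraries and 326, 328 and 369 CPM in the wild-type libraries. Its groups overlapped in every comparison. The 8 members of vesicle uncoating and the synapse include Hspa8, Hspa4 and Hsph1. Of these, 6 were lower in 5xFAD/Cd5l tg/wt than in 5xFAD (median log2 fold change -0.132), and 1 fell, where 0.888% of all genes were called lower. All 8 were higher in 5xFAD than in wild-type (median 0.134). There 0 passed in edgeR and 3 had an unadjusted p under 0.05 (16.3% of all genes).

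Dnajc12 (chromosome 10, 63218222 to 63246355), which in humans is a co-chaperone of the aromatic amino acid hydroxylases that make dopamine and serotonin precursors, was at 14.98, 8.83 and 9.42 CPM in the 5xFAD/Cd5l tg/wt libraries, 16.3, 15.4 and 17.3 CPM in the 5xFAD libraries and 14.5, 16.1 and 16.4 CPM in the wild-type libraries. 5xFAD/Cd5l tg/wt libraries 2 and 3 were low, whereas library 1 lay beside the other groups. The log2 fold change was -0.56 ± 0.17 in 5xFAD/Cd5l tg/wt against 5xFAD (adjusted p = 0.0796) and -0.50 ± 0.17 against wild-type (adjusted p = 0.242). The hypothalamic markers summed to 89.2, 3.57 and 6.32 CPM in the same 5xFAD/Cd5l tg/wt libraries, against 62.9 to 80.9 CPM in 5xFAD and 51.6 to 84.0 CPM in wild-type libraries, with Hcrt, Oxt and Agrp at 0 in some libraries. Without 5xFAD/Cd5l tg/wt library 1 the difference from 5xFAD was -0.84 (adjusted p = 0.00125), and when the 3 libraries with deviating regional markers were left out it was -0.14.

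The only members higher in 5xFAD/Cd5l tg/wt than in 5xFAD by more than 0.2 on the log2 scale were Hspa12b, Hspb3, Dnajc4 and Dnajc13, and none passed. Dnajc13 (RME-8), which sorts proteins on endosomes, was at 75.9, 79.9 and 71.9 CPM in the 5xFAD/Cd5l tg/wt libraries, 63.9, 59.5 and 72.7 CPM in the 5xFAD libraries and 64.2, 69.3 and 71.5 CPM in the wild-type libraries, a log2 fold change of 0.22 ± 0.087 (adjusted p = 0.163), with 1 5xFAD library inside the 5xFAD/Cd5l tg/wt range. Dnajc4 was at 15.1, 12.7 and 12.4 CPM in the 5xFAD/Cd5l tg/wt libraries, 12.1, 10.4 and 11.7 CPM in the 5xFAD libraries and 12.9, 10.2 and 10.03 CPM in the wild-type libraries, and was the 1 member whose 5xFAD/Cd5l tg/wt libraries all lay above the 5xFAD libraries, with a log2 fold change of 0.23 ± 0.14 (adjusted p = 0.361). Dnajc27, a GTPase with a J domain, had a log2 fold change of -0.21 ± 0.094 in 5xFAD/Cd5l tg/wt against wild-type (adjusted p = 0.399).

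The small heat shock protein genes named Hspb had low transcript levels in these brains and differed without passing. Hspb1 (chromosome 5, 135916773 to 135918417), the inducible HSP27, was at 4.19, 4.92 and 5.08 CPM in the 5xFAD/Cd5l tg/wt libraries, 5.23, 7.52 and 4.02 CPM in the 5xFAD libraries and 5.93, 6.45 and 8.37 CPM in the wild-type libraries. Alone among the 12 heat-inducible members it was lower in 5xFAD than in wild-type, with a log2 fold change of -0.30 ± 0.23 (adjusted p = 0.590), and in 5xFAD/Cd5l tg/wt against wild-type it was -0.54 ± 0.23 (adjusted p = 0.362), with separate ranges. Hspb8, which works with the co-chaperone BAG3 in autophagy of misfolded proteins, was at 15.7, 11.9 and 15.4 CPM in the 5xFAD/Cd5l tg/wt libraries, 17.8, 16.7 and 18.9 CPM in the 5xFAD libraries and 19.7, 16.4 and 16.7 CPM in the wild-type libraries. Its 5xFAD/Cd5l tg/wt libraries lay below the other 6, with log2 fold changes of -0.31 ± 0.13 against 5xFAD and -0.29 ± 0.13 against wild-type (adjusted p = 0.185 and 0.385). Among members of at least 5 CPM, Hspb6 (HSP20) was one of the 3 highest in 5xFAD/Cd5l tg/wt against wild-type at 0.17 ± 0.21 (adjusted p = 0.814). The 8 members that did not pass the count filter were Hspb2, Hspb7, Hspb9, Dnajb7, Dnajb8, Dnajc5b, Dnajc5g and Dnajc22. Hspb2 had the most, 61 counts over all 9 libraries, and Dnajb8 and Dnajc5g had 0, which allows up to 3 counts, or 0.168 to 0.207 CPM in a library, counting error only.

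Levels per kb of gene length, as deposited with the counts, order the members across genes. The mean over all 9 libraries was highest in Hsp90ab1 at 534 CPM per kb, followed by Hspa8 at 395, Hsp90aa1 at 287, Hsp90b1 at 80.6 and Dnaja2 at 68.7. These top levels of Hsp90ab1, Hspa8 and Hsp90aa1 differed beyond their spread, since their ranges over all libraries did not touch: Hsp90ab1 spanned 507 to 539 CPM per kb in 5xFAD/Cd5l tg/wt, 550.5 to 563 in 5xFAD and 500.3 to 536 in wild-type libraries, while Hspa8 spanned 328 to 382 in 5xFAD/Cd5l tg/wt, 409 to 465 in 5xFAD and 358 to 404 in wild-type libraries. Below them Hspa5, Dnajc5, Hspd1 and Dnajc6, at 65.0, 63.8, 61.9 and 59.5 CPM per kb, cannot be ordered, as their ranges overlapped, and Hsp90b1 and Dnaja2 overlapped with Hspa5 too. Hspa8, Hsp90ab1 and Hsp90aa1 made up 43.4% of the summed CPM of all members.

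**Figure D4:**
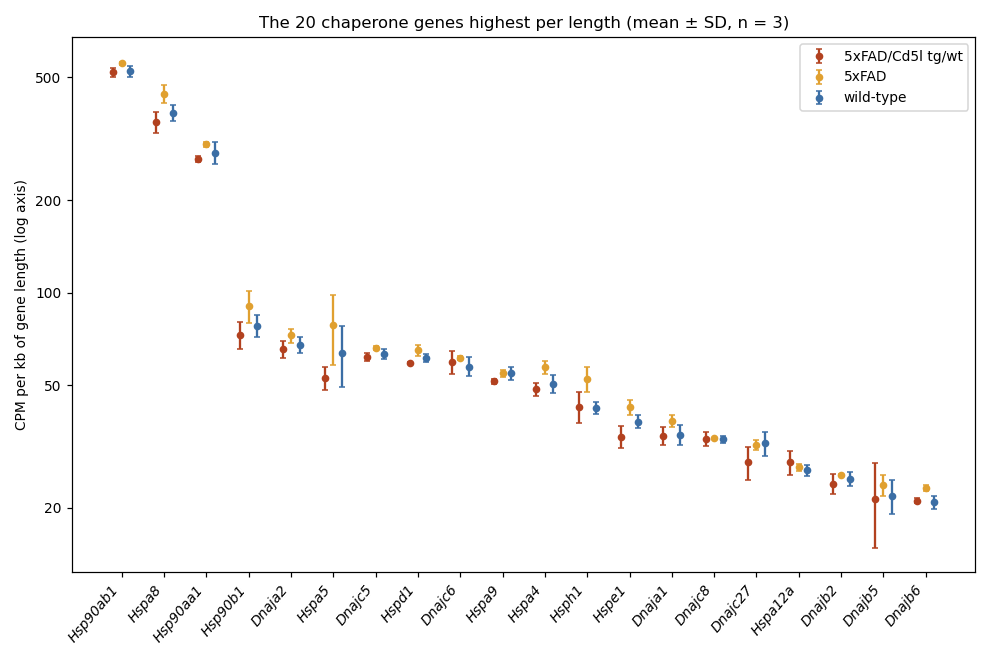
Level (CPM per kb of gene length, log axis) of the 20 chaperone genes highest per length, as mean ± SD (n = 3) in 5xFAD/Cd5l tg/wt, 5xFAD and wild-type libraries. Hsp90ab1, Hspa8 and Hsp90aa1 stand at 287 to 534 CPM per kb over all libraries, and the next gene, Hsp90b1, at 80.6.

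Co-chaperones and regulators outside the symbol rule included 4 that passed. Of 31 such genes tested, 24 were lower in 5xFAD/Cd5l tg/wt than in 5xFAD, with a median log2 fold change of -0.109; 3 fell, 1 rose and 27 did not pass, where 0.888% of all tested genes were called lower and 5.34% higher. Stip1 (HOP), which links HSP70 to HSP90, fell: it was at 183, 178 and 186 CPM in the 5xFAD/Cd5l tg/wt libraries, 242, 252 and 216 CPM in the 5xFAD libraries and 197, 192 and 221 CPM in the wild-type libraries, a log2 fold change of -0.38 ± 0.077 (adjusted p = 0.0136). Fkbp4 (FKBP52), an HSP90 immunophilin, fell by 0.43 ± 0.093 on the log2 scale (adjusted p = 0.0180), at 121, 106 and 125 CPM in 5xFAD/Cd5l tg/wt and 158, 174 and 143 CPM in 5xFAD libraries. Ptges3 (p23), which stabilizes the closed form of HSP90, fell as well, at 70.1, 69.6 and 78.7 CPM in 5xFAD/Cd5l tg/wt and 95.7, 93.8 and 82.3 CPM in 5xFAD libraries (-0.32 ± 0.080, adjusted p = 0.0362). In all 3 the 5xFAD/Cd5l tg/wt range lay below the 5xFAD range, like that of their partners Hspa8 and Hsp90aa1. Stip1, Fkbp4 and Ptges3 lost their calls when 5xFAD library 1 was left out (adjusted p = 0.0731, 0.0758 and 0.171) and when 5xFAD library 2 was left out (adjusted p = 0.0883, 0.106 and 0.165). Fkbp4 and Ptges3 also lost them when 5xFAD/Cd5l tg/wt library 2 was left out (adjusted p = 0.0707 and 0.126), and Ptges3 when library 1 of 5xFAD/Cd5l tg/wt or of wild-type was (adjusted p = 0.0520 and 0.0507). When the 3 libraries with deviating regional markers were left out, neither of them passed (adjusted p = 0.0520 for Fkbp4 and 0.0618 for Ptges3), and Ptges3 did not pass in the fit of the 6 libraries compared (0.0551).

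Of the heat shock transcription factors, 1 passed the test. Hsf2 was at 32.1, 32.5 and 30.9 CPM in the 5xFAD/Cd5l tg/wt libraries, 22.7, 21.3 and 22.8 CPM in the 5xFAD libraries and 24.9, 28.8 and 28.6 CPM in the wild-type libraries. It was higher in 5xFAD/Cd5l tg/wt than in 5xFAD, with a log2 fold change of 0.52 ± 0.088 (adjusted p = 0.00528), and kept this call under all 18 alternatives. Hsf1, the main regulator of the heat-inducible genes, was at 28.2, 34.6 and 32.0 CPM in the 5xFAD/Cd5l tg/wt libraries, 32.0, 31.6 and 25.3 CPM in the 5xFAD libraries and 29.8, 34.7 and 29.6 CPM in the wild-type libraries, with overlapping groups and a log2 fold change of 0.093 ± 0.12 (adjusted p = 0.675). In 5xFAD against wild-type 0 of the 31 genes passed in edgeR and 8 had an unadjusted p under 0.05 (16.3% of all genes). In 5xFAD/Cd5l tg/wt against wild-type 0 passed and 3 had an unadjusted p under 0.05 (12.4% of all genes).

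Of the other folding lists, 3 lay mostly lower in 5xFAD/Cd5l tg/wt than in 5xFAD, with few calls, and the mitochondrial chaperone partners did not. All 14 genes of the cytosolic chaperonin TRiC and of prefoldin, which fold actin and tubulin, were lower in 5xFAD/Cd5l tg/wt than in 5xFAD, with a median log2 fold change of -0.161. Of these 1 fell, Cct5 (-0.27 ± 0.071, adjusted p = 0.0455), where 0.888% of all genes were called lower. An unadjusted p under 0.05 was found for 7 (22.3% of all genes). The libraries separated downwards in 8 (12.1% of all genes). Cct5 did not pass without any one of 6 libraries: 5xFAD 1 or 2, 5xFAD/Cd5l tg/wt 2 or 3, and wild-type 1 or 2 (adjusted p = 0.162, 0.195, 0.144, 0.0928, 0.0522 and 0.0534), nor when the 3 libraries with deviating regional markers were left out (0.152). Of 20 further genes of folding and the unfolded protein response in the endoplasmic reticulum, 18 were lower in 5xFAD/Cd5l tg/wt than in 5xFAD (median -0.151) and 19 higher in 5xFAD than in wild-type (median 0.160). In edgeR 0 of them passed in any comparison. An unadjusted p under 0.05 was found for 7 and 6 in these comparisons (22.3% and 16.3% of all genes). In 5xFAD/Cd5l tg/wt against wild-type it was found for 0 (12.4% of all genes). The nearest was Xbp1, a transcription factor of this response, at -0.52 ± 0.15 in 5xFAD/Cd5l tg/wt against 5xFAD (adjusted p = 0.0664). Of the genes of this list followed under the alternatives, DESeq2 called Xbp1, Pdia6 and Manf lower there (adjusted p = 0.0122, 0.0342 and 0.0491). In 5xFAD against wild-type DESeq2 called Sdf2l1 and Pdia6 higher (adjusted p = 0.0324 and 0.0487). Over all 17575 genes DESeq2 called 1437 and 846 in these comparisons. Of 10 mitochondrial chaperone partners, 6 were higher in 5xFAD/Cd5l tg/wt than in 5xFAD (median 0.0296) and 6 lower in 5xFAD than in wild-type (median -0.0382). The same 1 gene passed in both comparisons, where 6.23% and 3.50% of all genes were called. Timm44 tethers mitochondrial HSP70 to the import channel. It rose in 5xFAD/Cd5l tg/wt relative to 5xFAD (0.39 ± 0.089, adjusted p = 0.0236) and fell in 5xFAD against wild-type (-0.38 ± 0.089, adjusted p = 0.0352). Neither call of Timm44 held without any single 5xFAD library or without 5xFAD/Cd5l tg/wt library 3, the rise did not hold without library 2 of 5xFAD/Cd5l tg/wt (adjusted p = 0.0721 to 0.0973 over these), and the fall did not hold without any single wild-type library (adjusted p = 0.0536 to 0.150 over its 7). When the 3 libraries with deviating regional markers were left out, the rise came to 0.22 (adjusted p = 0.261). Of 4 tested small heat shock and DnaJ-domain genes named outside the rule, 3 were lower in 5xFAD/Cd5l tg/wt than in 5xFAD. Cryab, a small heat shock protein of glia, had a log2 fold change of -0.43 ± 0.13 in 5xFAD/Cd5l tg/wt against 5xFAD (adjusted p = 0.0633). The 7 oligodendrocyte markers were all lower there too, with 0 that passed and 0 with separate ranges. Their part in the Cryab value was not tested.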

How the data were processed

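Total RNA from 9 mouse brains, 3 per genotype, was sequenced. The deposited table holds raw counts per gene, made by the authors, with symbols, coordinates and gene lengths. The genome build is GRCm39 per the submitters' processing notes. The aligner, the counting tool, its strand setting and how it treats reads that match several genes: not given in the sources used here. Groups came from the genotype in the labels.

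From the counts, genes were kept by filterByExpr (minimum count 10, minimum total 15), and the genes dropped held up to 0.161% of a library. The 9 libraries were scaled by TMM (factors 0.987 to 1.018) and fitted with 1 coefficient for each genotype by edgeR 4.0.16's quasi-likelihood method (limma 3.58.1, R 4.3.3). P-values were adjusted by the Benjamini-Hochberg method over the 17575 genes, with a threshold of 0.05, and the SE is the absolute log2 fold change divided by the root of F. Lists were described by counts and medians, with no set test. The scripts were tested on simulated data. Nothing but the titles says how the animals were sampled, so p-values measure the spread between these libraries.

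The members and lists were chosen with earlier results of these data known. Named with values were members past the threshold, the heat-inducible members, the 3 highest and 3 lowest log2 fold changes per comparison among members of at least 5 CPM, the 5 members highest per kb and, of each further list, up to 4 genes of smallest p. Members with an unadjusted p under 0.05, Dnajb5, Dnajc5, Dnajc6 and Hsf1 were added after their values were seen. Alternatives were RLE or upper-quartile scaling, limma-voom, DESeq2 1.42.0, no filter, at least 1 CPM in 3 libraries, a replicate block, only the 6 libraries of a comparison, and leaving out each library or the 3 with deviating regional markers. Promoter windows came from RefSeq (GRCm38.p6), found for 58 of 73 members. Figures were drawn with matplotlib 3.10.9.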

Additional observations from a re-analysis of the deposited data

How the results depend on the processing

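Direction held better than the counts of calls: the member median kept its sign under all 18 alternatives in every comparison, and no result of a called gene reversed. Between 5xFAD/Cd5l tg/wt and 5xFAD the median ran from -0.173 to -0.102 with 1 library left out. The count of members called there, 2 as reported, was 4 with upper-quartile scaling, 10 without a filter, 7 with DESeq2, 1 in the fit of 6 libraries, 6 without the 3 libraries of deviating regional markers, and 0 to 6 with 1 library left out. It was 0 without 5xFAD library 1, without 5xFAD library 2 or without library 2 of 5xFAD/Cd5l tg/wt. For 5xFAD against wild-type, 0 as reported, it was 2 without a filter, 1 with DESeq2, 1 in the fit of 6 libraries, 6 without the 3 libraries (with a median of 0.107), and 0 to 1 with 1 library left out, where the median ran from 0.0613 to 0.0952. Between 5xFAD/Cd5l tg/wt and wild-type, 0 as reported, it was 2 without a filter, 1 without the 3 libraries (Dnajb5), and 0 to 2 with 1 library left out, where the median ran from -0.0735 to -0.0154.

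Over all genes, 5xFAD against wild-type had 615 calls as reported, 1354 without a filter, 1154 without the 3 libraries and 206 to 850 with 1 library left out. 5xFAD/Cd5l tg/wt against 5xFAD had 1095, 2063, 630 and 278 to 2069 in the same settings. 5xFAD/Cd5l tg/wt against wild-type had 277 as reported, 1062 without a filter, 467 with DESeq2, 176 in the fit of 6 libraries and 158 to 686 with 1 library left out. The cause of these shifts was not tested.

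Libraries that share a replicate number did not deviate together (correlations from -0.119 to 0.170), so nothing was paired. With the number as a replicate block, 1 member was called for 5xFAD/Cd5l tg/wt against 5xFAD, Hspa8. The calls of Hspe1, Ptges3 and Cct5 there did not pass under it (adjusted p = 0.0776, 0.0722 and 0.0861). Over all genes it called 506 for 5xFAD against wild-type, and for 5xFAD/Cd5l tg/wt 836 against 5xFAD and 240 against wild-type. With 3 libraries per genotype, differences as small as most of these are hard to call.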
